A study of Saccharomyces cerevisiae with 2 samples.

Results

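The genes of the small ribosomal subunit proteins of the budding yeast Saccharomyces cerevisiae were followed in 2 strains grown with high glucose. The members are all rows of the deposited table whose identifier is the locus of a gene named RPS with a number and, where a duplicate exists, the letter A or B. All 56 such genes of the R64 annotation (NCBI RefSeq) were in the table, among 7163 features with values, and each of the 56 annotated products is a small-subunit (40S) ribosomal protein. They encode 32 proteins, 24 of them from a pair of duplicated genes (paralogues) and 8 from a single gene.

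RNA was sequenced from 2 strains: MF02, labelled as the wild type, and UV02_HG, for which the genotype label repeats that name and gives no allele. Both were grown in 40% (w/v) glucose to mid-exponential phase, and the series title speaks of a glucose-tolerant strain without naming it. There is 1 sample per strain, and each strain has 2 columns of values. The design text speaks of duplicates without saying that they were separate cultures, and here they count as repeat runs of 1 sample, whose spread may be technical. No difference has a replicate check and no p-value is given. Ranges run over the 4 ways of setting a column of UV02_HG against a column of MF02.

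The small subunit reads the messenger RNA during translation. Its proteins sit on the small-subunit ribosomal RNA in a head, a platform, a shoulder and a body, and each ribosome holds a single copy of each protein. In budding yeast most of these proteins have duplicated genes left by an ancient genome duplication, and their transcription, driven by Rap1, Fhl1 and Ifh1, is known to follow growth rate and nutrient supply and to drop under stress.

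Values are FPKM, fragments per kilobase of gene model, scaled to the fragments counted in a column. FPKM multiplied by the coding length gave whole reads for all 56 genes, from 394 reads for the weakest to 517316 for the strongest in UV02_HG column 2, in libraries of 12507299 to 15144991 counted reads. Counting error was thus small, with a median 95% half-width of 0.02 on the log2 ratio of a member (highest 0.12). The members took 5.54% and 3.79% of all counted reads in the MF02 columns and 15.5% and 14.8% in the UV02_HG columns. Because FPKM is a share of a library, more of these messages per cell and less of the rest of the RNA cannot be told apart.

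In the FPKM as deposited, most small subunit genes were higher in UV02_HG and a small set was lower. The median log2 ratio of UV02_HG over MF02 (FPKM + 1) was 1.27 over the 56 genes, 0.88 to 1.43 over the 4 column comparisons, where the median of all 6291 features expressed at 1 FPKM or more in either strain was -0.89. At least 2-fold higher were 32 genes, and 7 were at least 2-fold lower, where 14.7% and 47.2% of all expressed features were. In all 4 column comparisons 25 genes passed the same rule as higher and 3 as lower, against 8.68% and 24.9% of all features. The columns of the strains did not overlap for 44 of the 56 genes, a share near the background of 77.1%.

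**Figure D1:**
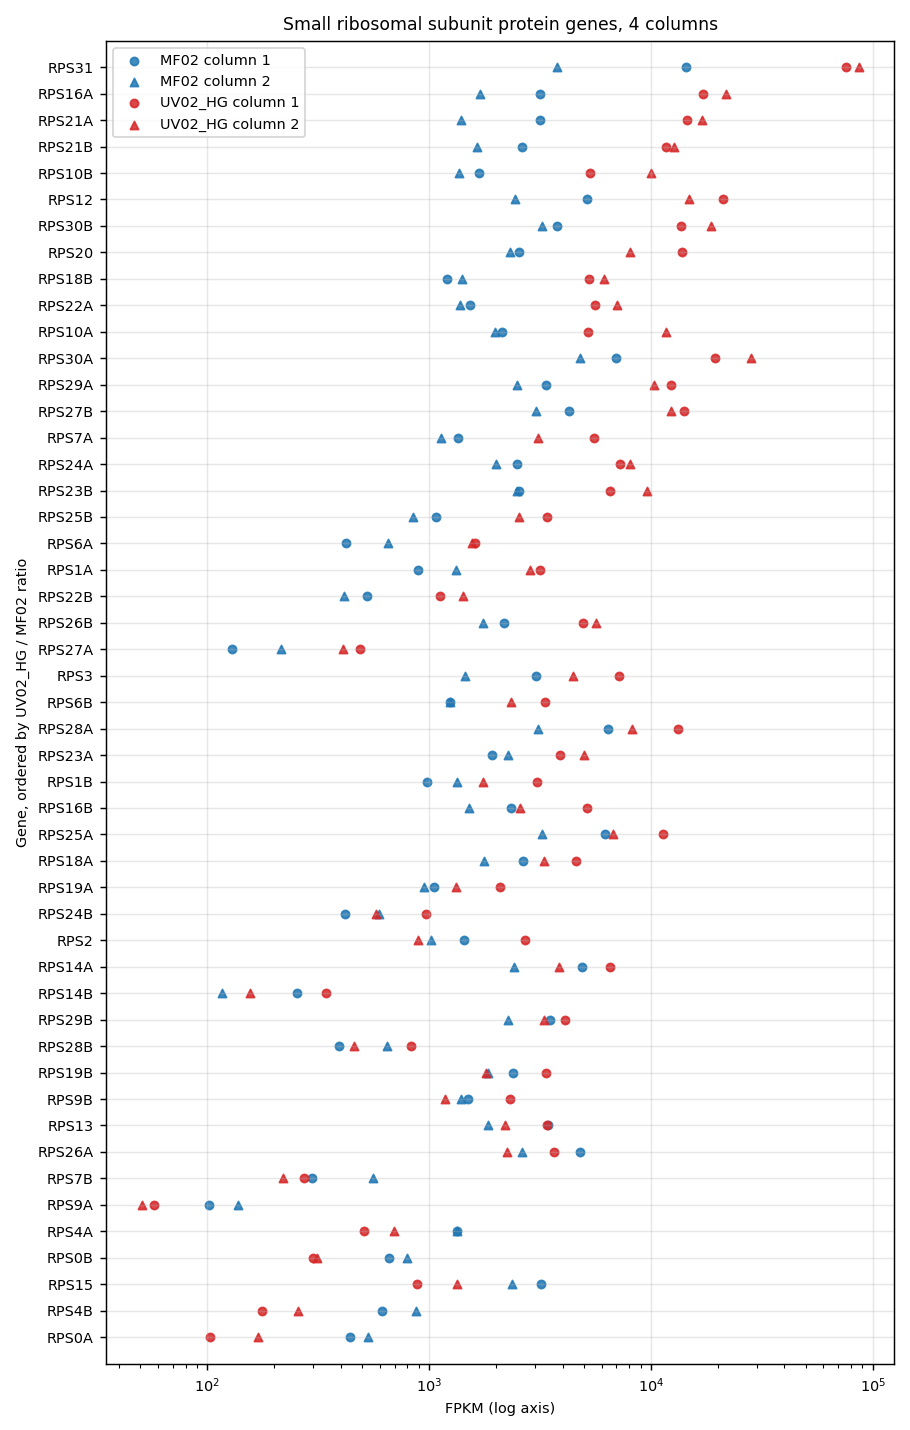
FPKM (log axis) of 49 small ribosomal subunit protein genes in the 2 MF02 columns (blue) and the 2 UV02_HG columns (red), ordered by the ratio of the strain means. At the top RPS31 and RPS16A lie higher in both red columns, and at the bottom RPS0A, RPS4B and RPS15 lie lower in both.

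The size of the shift depended on how columns were put on a common scale. The family median was 0.16 after rescaling to equal FPKM totals, 1.94 with upper quartile scaling, 2.04 with trimmed mean of M values scaling and 2.16 after centring on the median feature. These scalings moved the median of all features by -0.93, 0.63, 0.79 and 0.89. Of the 32 genes past 2-fold higher, 30 were positive under all 4 scalings, and all 7 past 2-fold lower were negative under all of them. The counts moved with the scale, to 10 higher and 11 lower with equal FPKM totals, 42 and 2 with upper quartile scaling, and 44 and 0 both after centring and with the trimmed mean of M values. Of all 6291 features, 296 were higher and 4307 lower with equal FPKM totals, and 1496 and 1724 with upper quartile scaling. After centring 1797 were higher and 1296 lower, and with the trimmed mean of M values 1658 and 1410. RPS23A and RPS1B turned slightly negative, at -0.060 and -0.10, with equal FPKM totals. None of the 17 genes between kept its sign under every scaling, so they are given below without a direction.

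The strain ratio of all genes fell with coding length, and the members are short, from 171 to 786 nt. Relative to a running median of the genes nearest in coding length, the family median was 0.67, with 23 higher and 7 lower by 2-fold or more, where 17.1% and 16.8% of genes with a coding length were. The 17 members longer than 500 nt had medians of 0.55 before and 1.18 after this adjustment. The 39 shorter members had 1.44 and 0.63. Across the 56 genes, as a description, Spearman's rho of the strain ratio was -0.43 with coding length and -0.58 with coding GC content, which ran from 37.7% to 48.4%. The part of length and GC content in the ratios was not tested.

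**Figure D2:**
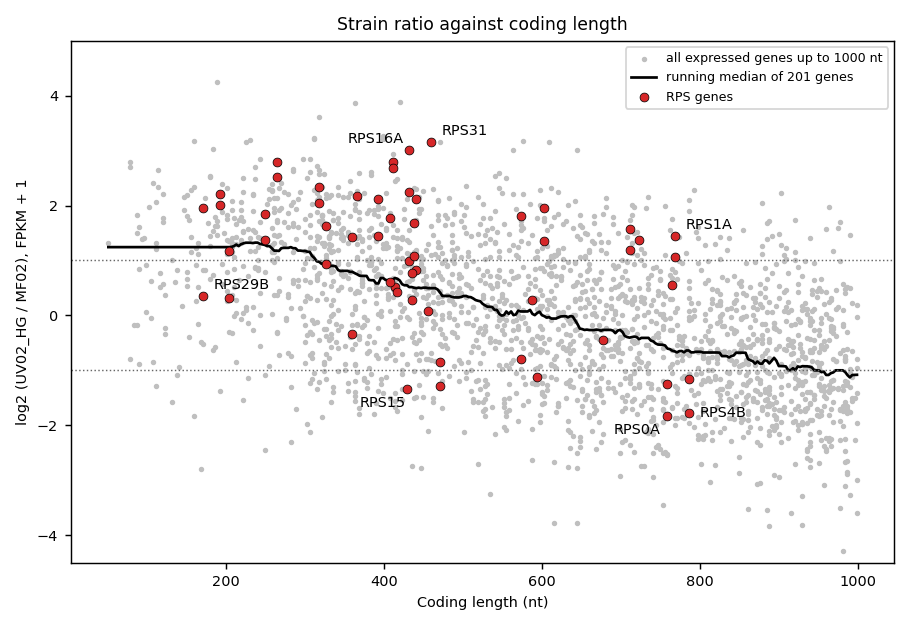
Log2 ratio of UV02_HG over MF02 against coding length for all expressed genes up to 1000 nt (grey), the running median by length (line) and the 56 RPS genes (red), with dotted lines at 2-fold. RPS1A lies 2.10 above genes of its length, whereas RPS0A and RPS4B, of like length, lie 1.22 and 1.10 below.

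In the head of the subunit 13 of 22 genes were higher by 2-fold or more and 1 was lower. Over all 56 members 32 were higher and 7 lower, where 14.7% and 47.2% of all expressed features were. The counts of the other regions below stand against the same shares, and differences between the regions were not tested. RPS31, which encodes a fusion of ubiquitin with the beak protein eS31, stood at 14473 and 3795 FPKM in MF02 against 75486 and 86424 FPKM in UV02_HG. It had the highest level of all members in UV02_HG and the largest ratio, 8.86-fold (5.22 to 22.8), although its MF02 columns lay far apart. RPS12, the gene of the neighbouring beak protein eS12, had 5167 and 2436 FPKM in MF02 against 21187 and 14923 FPKM in UV02_HG, 4.75-fold higher (2.89 to 8.69). The RPS10 pair, for the beak protein eS10, was higher as well, RPS10A by 4.12-fold and RPS10B by 5.03-fold.

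RPS20, for uS10, was 4.51-fold higher (3.18 to 5.97), with 2536 and 2324 FPKM in MF02 against 13877 and 8069 FPKM in UV02_HG. RPS3, for uS3 at the entry of the mRNA channel, had 3052 and 1460 FPKM in MF02 against 7219 and 4441 FPKM in UV02_HG. That is 2.58-fold higher, 1.45 to 4.94 over the column comparisons, with no overlap of the strains.

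RPS15, for uS19, was the head gene that went the other way. It had 3209.9 and 2376 FPKM in MF02 against 879 and 1337 FPKM in UV02_HG, 2.52-fold lower (1.78 to 3.65), and its ratio was -1.89 relative to genes of its length. The RPS19 pair (0.77 and 0.28 for A and B) lay between the thresholds.

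On the platform 5 of 11 genes were higher by this rule and 2 were lower. The higher genes were both RPS21 copies, both RPS1 copies and RPS26B. RPS21A, for eS21, had 3176 and 1396 FPKM in MF02 against 14601 and 17029.7 FPKM in UV02_HG, 6.92-fold higher (4.60 to 12.2). Its partner RPS21B was 5.71-fold higher (4.46 to 7.71). RPS1A, for eS1, had 894 and 1319 FPKM against 3176 and 2842 FPKM, 2.72-fold higher (2.15 to 3.55).

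The lower platform genes were the RPS0 pair, for uS2, a protein needed to mature the small-subunit ribosomal RNA. RPS0A had 442 and 533 FPKM in MF02 against 103 and 169 FPKM in UV02_HG, 3.56-fold lower (2.60 to 5.12). RPS0B had 658 and 793 FPKM against 299 and 311 FPKM, 2.37-fold lower (2.11 to 2.65). Both copies were at least 2-fold lower in all 4 column comparisons. RPS13, for uS15, had 3434 and 1839.5 FPKM in MF02 against 3404 and 2198 FPKM in UV02_HG, with a log2 ratio of 0.09.

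In the shoulder 4 of 7 genes were higher by this rule and 1 was lower. The RPS30 pair, for eS30, and the RPS23 pair, for uS12 at the decoding centre, made up the higher genes. RPS30A and RPS30B were 4.05-fold (2.78 to 5.90) and 4.61-fold (3.64 to 5.75) higher, and RPS23A and RPS23B 2.12-fold and 3.22-fold, with RPS23A level under equal FPKM totals. RPS9A, a weakly expressed gene for uS4, was lower and is described with its partner below. RPS2, for uS5 at the mRNA entry, had 1436 and 1016 FPKM in MF02 against 2703 and 891 FPKM in UV02_HG, so that the MF02 values lay between the UV02_HG values.

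The body held 10 genes of 16 that were at least 2-fold higher and 3 that were lower. Among the higher were both copies of RPS6, for eS6, a protein phosphorylated downstream of the nutrient-sensing kinase complex TORC1. RPS6A had 423 and 651 FPKM in MF02 against 1620.2 and 1568 FPKM in UV02_HG, 2.97-fold higher (2.41 to 3.82), and RPS6B was 2.28-fold higher (1.89 to 2.68). RPS22A, for uS8, was 4.33-fold higher (3.65 to 5.09). Its partner RPS22B, whose intron holds the small nucleolar RNA gene snR44, was 2.71-fold higher (2.15 to 3.43). The snR44 feature itself had 44.4 and 48.5 FPKM in MF02 against 280.03 and 405 FPKM in UV02_HG, a log2 ratio of 2.86, and lies outside the coding exons of RPS22B.

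Among the lower body genes were both copies of RPS4, for eS4. RPS4A had 1341 and 1340.06 FPKM in MF02 against 509 and 693 FPKM in UV02_HG, 2.23-fold lower (1.93 to 2.63). RPS4B had 613 and 876 FPKM against 176 and 257 FPKM, 3.43-fold lower (2.38 to 4.95). Relative to genes of their own length RPS4A, RPS4B, RPS0A and RPS0B stood at -0.48, -1.10, -1.22 and -0.65 on the log2 scale. The 7 genes past 2-fold lower had a median coding length of 759 nt and a median GC content of 44.0%, and the 32 higher genes 409.5 nt and 42.4%.

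Summing the copies gives the message level behind each protein. Of the 32 proteins 21 were at least 2-fold higher in UV02_HG and 3 lower, namely RPS0 (2.74-fold), RPS15 (2.52-fold) and RPS4 (2.55-fold). By the same rule 14.7% of all expressed features, each taken singly, were higher and 47.2% lower. From the column means the strongest protein of MF02, RPS30, was 7.75-fold above the weakest, RPS0, and in UV02_HG RPS31 was 183-fold above RPS0. By column, the span was 13.2-fold in MF02 column 1 (RPS31 over RPS0), 7.90-fold in MF02 column 2 (RPS30 over RPS2), and 188-fold and 179.8-fold in UV02_HG (RPS31 over RPS0). The ratio of the upper to the lower quartile was 2.43 and 1.57 in the MF02 columns and 3.22 and 4.81 in the UV02_HG columns, so the levels were more spread out in UV02_HG in each column comparison. The coefficient of variation across proteins was 66.5% and 47.4% against 115% and 139.5%. The order of the proteins was largely shared, with Spearman's rho of 0.80 between the strains over 32 proteins, given as a description. RPS30, RPS31, RPS21 and RPS16 stood among the leaders in UV02_HG. Among the larger moves in rank, RPS26 went from 5 in MF02 to 17 in UV02_HG, RPS15 from 18 to 29 and RPS14 from 11 to 20. In the other direction RPS20 went from 22 to 13 and RPS22 from 27 to 18. Levels fell with coding length in every column over the 32 proteins, with rho from -0.69 to -0.65.

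**Figure D3:**
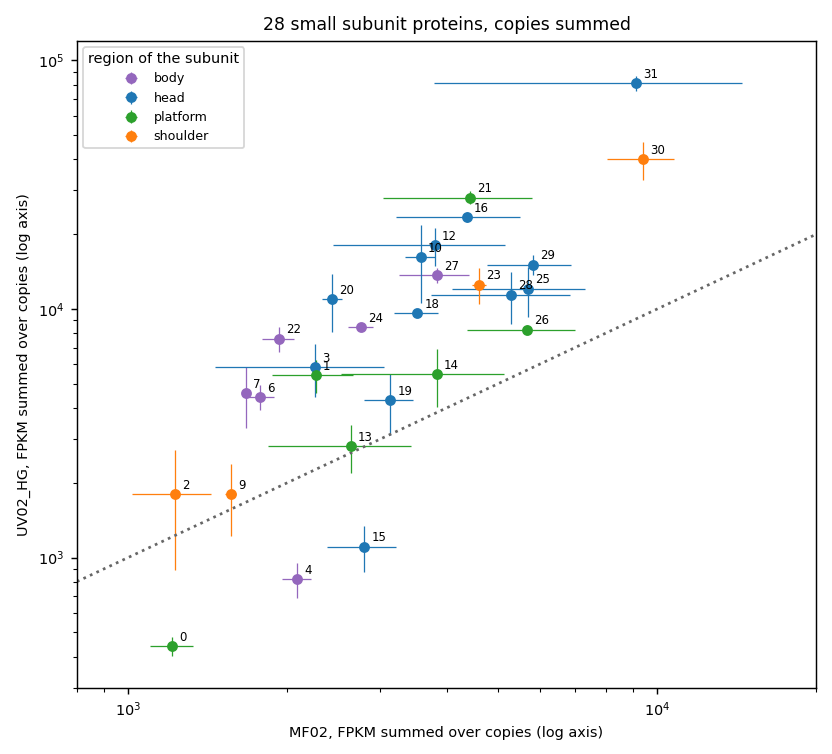
FPKM summed over gene copies for 28 small subunit proteins in UV02_HG against MF02 (both axes log), labelled by the number of the protein; points are means of the 2 columns, bars run from the lower to the higher column, and the dotted line marks equal values. RPS31 lies highest above the line, and RPS0, RPS4 and RPS15 lie below it.

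Comparing A with B copies within a column removes the scaling of that column, and in 22 of the 24 pairs both copies have the same coding length. The pairs are also similar in sequence, which matters for how reads were assigned. Coding sequences of A and B were 84.3% to 99.2% identical in R64, with a median of 92.7%. In 20 of the 24 pairs no 100-base window of the A copy occurred in the B copy. In the other 4, among them RPS6, RPS24 and RPS4, with 53.4%, 17.2% and 13.2% of such windows shared, reads may have been split between copies or dropped, and their single copies are uncertain.

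The stretches below are 120 coding bases of each copy, 5′ to 3′ on the coding strand in R64, chosen where the copies differ most, and for RPS29 the whole coding sequence. They show, for 5 of the 7 pairs whose A and B balance differed at least 2-fold between the strains, where reads of the copies can be told apart, with the bases that differ between the copies in capitals. The RPS7, RPS16, RPS18 and RPS26 stretches hold 29, 12, 9 and 15 differences, and RPS29 holds 14.
RPS7A: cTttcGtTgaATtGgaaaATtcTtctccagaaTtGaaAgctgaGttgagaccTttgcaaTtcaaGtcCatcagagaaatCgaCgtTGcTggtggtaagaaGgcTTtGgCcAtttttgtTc
RPS7B: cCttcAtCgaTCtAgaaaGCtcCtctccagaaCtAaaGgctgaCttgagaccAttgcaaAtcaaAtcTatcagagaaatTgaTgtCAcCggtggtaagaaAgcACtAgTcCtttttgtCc
RPS16A: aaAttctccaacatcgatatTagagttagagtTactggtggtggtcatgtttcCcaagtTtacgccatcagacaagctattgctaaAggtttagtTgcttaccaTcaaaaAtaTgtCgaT
RPS16B: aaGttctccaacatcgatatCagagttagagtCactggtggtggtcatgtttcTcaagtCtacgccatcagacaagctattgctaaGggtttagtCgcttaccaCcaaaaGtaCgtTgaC
RPS18A: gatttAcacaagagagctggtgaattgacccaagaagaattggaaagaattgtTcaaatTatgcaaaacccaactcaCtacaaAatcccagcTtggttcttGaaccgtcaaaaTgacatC
RPS18B: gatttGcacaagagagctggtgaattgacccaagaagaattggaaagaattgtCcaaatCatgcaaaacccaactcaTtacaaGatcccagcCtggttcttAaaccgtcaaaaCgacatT
RPS26A: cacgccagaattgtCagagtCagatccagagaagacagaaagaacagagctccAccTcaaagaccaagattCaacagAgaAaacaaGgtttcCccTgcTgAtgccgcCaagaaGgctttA
RPS26B: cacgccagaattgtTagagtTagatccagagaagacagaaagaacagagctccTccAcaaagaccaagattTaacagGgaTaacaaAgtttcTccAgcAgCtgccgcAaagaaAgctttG
RPS29A: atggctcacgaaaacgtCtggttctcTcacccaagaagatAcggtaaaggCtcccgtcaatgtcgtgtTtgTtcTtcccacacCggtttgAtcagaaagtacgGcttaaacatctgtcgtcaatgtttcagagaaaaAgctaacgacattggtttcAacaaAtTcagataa
RPS29B: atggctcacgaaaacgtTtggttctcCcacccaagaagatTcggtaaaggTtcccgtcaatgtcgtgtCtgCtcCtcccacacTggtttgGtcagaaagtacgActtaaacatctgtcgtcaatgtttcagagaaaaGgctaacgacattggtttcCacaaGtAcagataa
They cover coding bases 68 to 187 of RPS7A (chromosome XV) and RPS7B (XIV), 175 to 294 of RPS16A (XIII) and RPS16B (IV), 157 to 276 of RPS18A (IV) and RPS18B (XIII), 238 to 357 of RPS26A (VII) and RPS26B (V), and 1 to 171 of RPS29A (XII) and RPS29B (IV).

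How many pairs had the same sign of the strain ratio in both copies depended on the scaling. It was 21 of 24 as deposited, 14 with equal FPKM totals, and 22 to 23 under the other scalings, and in the large subunit it was 28 of 33 as deposited and 25 with equal FPKM totals. As deposited, 10 pairs were at least 2-fold higher in both copies and 2, RPS0 and RPS4, at least 2-fold lower in both. In the large subunit 9 of 33 pairs were higher in both copies by this rule and 2 were lower in both. Pearson's r of the 2 copies' ratios was 0.67 over 24 pairs, given as a description, since copies share length, base composition and part of their sequence.

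The balance of A and B differed at least 2-fold between the strains in 7 of 24 pairs, and in 4 pairs, RPS7, RPS16, RPS26 and RPS29, in all 4 column comparisons. In the large subunit the same rule took 16 of 33 pairs (48.5%), and 7 pairs (21.2%) in all 4 comparisons, so such differences are not shown to be particular to the small subunit. The count was 6 of 20 without the pairs that share 100-base windows. The B/A ratios of the strains did not overlap in 18 of the 24 pairs, where 78.8% of the large subunit pairs did not, and the median size of the difference was 0.60 on the log2 scale against 0.80 in the large subunit. Between the columns of a strain the B/A ratio moved by a median of 0.48 in MF02 and 0.30 in UV02_HG, and by up to 1.76 and 1.36.

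RPS7, for eS7, shifted most, towards the A copy. RPS7A made up 81.9% and 66.9% of the summed FPKM in MF02 and 95.3% and 93.4% in UV02_HG. RPS7A had 1350.3 and 1131 FPKM in MF02 against 5566 and 3099.8 FPKM in UV02_HG, 3.49-fold higher (2.29 to 4.92). RPS7B had 297 and 559 FPKM against 273 and 219 FPKM, and its log2 ratio of -0.80 (-1.35 to -0.12) changed sign under centring. The A over B ratio thus went from 2.89 to 17.5, a log2 difference in B/A of -2.60 (-3.33 to -1.64).

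RPS16, for uS9 in the head, and RPS29, for the zinc-binding uS14, also moved towards A. RPS16A took 57.3% and 52.7% of its pair in MF02 and 76.8% and 89.5% in UV02_HG. It had 3162 and 1695 FPKM in MF02 against 17125 and 21918 FPKM in UV02_HG, 8.04-fold higher (5.42 to 12.9), while RPS16B, with 2355 and 1522 FPKM against 5162 and 2581 FPKM, lay just under 2-fold at 0.998 on the log2 scale. The difference in log2 B/A was -2.01 (-2.93 to -1.31). RPS29A took 48.8% and 52.4% in MF02 and 75.1% and 75.7% in UV02_HG. The RPS29 copies were level in MF02, at 3363 and 2504 FPKM for A and 3524 and 2274 FPKM for B, and parted in UV02_HG, at 12354 and 10339 FPKM for A and 4088 and 3312 FPKM for B, with a difference of -1.60 (-1.71 to -1.46).

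RPS26 and RPS18 exchanged their leading copy. RPS26A, for eS26 at the mRNA exit channel, took 68.7% and 60.1% of its pair in MF02 and 42.6% and 28.3% in UV02_HG. The A copy had 4798 and 2634 FPKM in MF02 against 3664 and 2238 FPKM in UV02_HG with overlapping columns, whereas RPS26B had 2189 and 1745 FPKM against 4942 and 5669 FPKM, 2.70-fold higher (2.26 to 3.25). The difference in log2 B/A was 1.76 (1.02 to 2.47). RPS18A, for uS13, took 68.7% and 55.7% in MF02 and 46.6% and 34.9% in UV02_HG. RPS18B had 1204 and 1412 FPKM in MF02 against 5265 and 6133 FPKM in UV02_HG, 4.36-fold higher (3.73 to 5.09), while RPS18A had 2648 and 1773 FPKM against 4587 and 3290.01 FPKM. The difference was 1.29 (0.53 to 2.03), and it fell under 2-fold with MF02 column 2 alone (0.86) or UV02_HG column 1 alone (0.96).

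RPS9 and RPS24 were uneven in both strains and more so in UV02_HG. RPS9A had 102 and 138 FPKM in MF02 against 57.9 and 50.9 FPKM in UV02_HG, 2.18-fold lower (1.75 to 2.67), while RPS9B stood at 1497 and 1389 FPKM and at 2313 and 1176 FPKM. RPS9B was thus 11.9-fold above RPS9A in MF02 and 31.5-fold in UV02_HG, a difference of 1.40 (0.64 to 1.97) that was 0.93 with UV02_HG column 2 alone. RPS24A, for eS24, took 85.5% and 77.2% in MF02 and 88.2% and 93.3% in UV02_HG, a difference of -1.16 (-2.05 to -0.34) in a pair that shares 100-base windows. It was -0.75 with MF02 column 1 alone and -0.76 with UV02_HG column 1 alone. RPS28, for eS28, came next at -0.86, with a range over the column comparisons (-1.90 to 0.02) that crossed 0. RPS28A took 82.8% in MF02 column 2, against 94.2% in MF02 column 1 and 94.1% and 94.7% in UV02_HG.

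**Figure D4:**
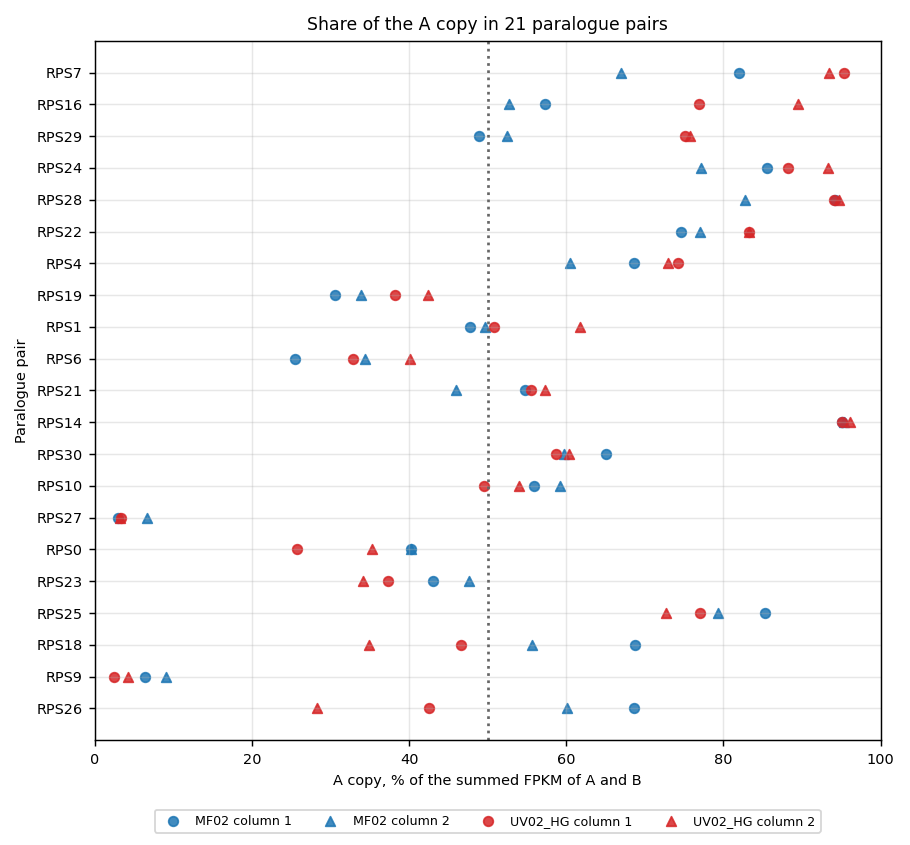
Share of the A copy in the summed FPKM of A and B for 21 pairs, in the 2 MF02 columns (blue) and the 2 UV02_HG columns (red), ordered by the strain difference in B/A, with a dotted line at equal copies. RPS7, RPS16 and RPS29 at the top lie further towards A in UV02_HG, RPS26 and RPS18 at the bottom cross from A to B, and RPS14 keeps its place.

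RPS14, RPS27 and RPS25 were among the most uneven pairs in MF02 and differed less than 2-fold in balance between the strains. RPS14A, for uS11 at the mRNA exit, made up 95.1% and 95.4% of its pair in MF02 and 95.05% and 96.1% in UV02_HG. RPS14B had 254 and 116 FPKM in MF02 against 342 and 156 FPKM in UV02_HG, against 2416 to 6564 FPKM for RPS14A over the 4 columns. The A over B ratio was 19.6 in MF02 and 20.9 in UV02_HG, and the difference in log2 B/A ran from -0.36 to 0.10. RPS27 was uneven the other way, with the A copy at 2.94% and 6.63% in MF02 and 3.35% and 3.23% in UV02_HG. RPS27A, for eS27, had 129.6 and 216 FPKM in MF02 against 490.3 and 409.9 FPKM in UV02_HG. The difference in log2 B/A of RPS27 was 0.48 (-0.19 to 1.09), and its log2 B/A differed by -1.23 between the MF02 columns (column 2 minus column 1). RPS25A, for eS25, made up 85.3% and 79.3% in MF02 and 77.1% and 72.6% in UV02_HG, a difference of 0.69 (0.19 to 1.13) with no overlap of the strains.

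Which copy was higher was the same in all 4 columns for 17 pairs, A in 10 and B in 7. The copies were at least 2-fold apart in 11 pairs in MF02 and in 13 in UV02_HG, and in 8 pairs in both. Spearman's rho of log2 B/A between the strains was 0.81 over 24 pairs in the small subunit and 0.89 over 33 pairs in the large subunit, both as descriptions. The widest exact 95% interval (Clopper-Pearson) of an A share of reads was 2.80 percentage points, which covers counting error only.

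Several of the highest ratios belonged to copies on chromosome XIII, which was looked at after the values were seen and after a high median of that chromosome was known. Its 5 members, among them RPS1B, RPS10B, RPS16A and RPS18B, had a median log2 ratio of 2.33, or 1.71 relative to length, and all 5 were at least 2-fold higher relative to length. All 456 expressed genes of the chromosome with a coding length had medians of -0.68 and 0.37. Of these 456 genes 123 were at least 2-fold higher relative to length, where 17.1% of all genes with a coding length were. In 4 of the 5 pairs the strain ratio of the copy on chromosome XIII exceeded that of its partner elsewhere, by 2.01 for RPS16, 1.29 for RPS18 and 0.29 for RPS10, and for RPS1 it was 0.38 less.

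The 36 genes with an intron in the coding sequence had a median of 1.14, or 0.53 relative to length, with 19 at least 2-fold higher and 6 lower. The 20 without had 1.36, or 0.95 relative to length, with 13 higher and 1 lower, and the difference was not tested. Of all expressed features 14.7% were higher and 47.2% lower by this rule.

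For the 76 large subunit genes the median was 0.61 (0.16 to 1.03), or 0.27 relative to length. At least 2-fold higher were 33 of them and 11 were lower, where 14.7% and 47.2% of all expressed features were. Their median was -0.43 with equal FPKM totals, where the median of all features was -1.82. ASC1, for the small-subunit scaffold protein RACK1 that lacks an RPS name, had 3428 and 1076 FPKM in MF02 against 10635 and 2704 FPKM in UV02_HG. Its log2 ratio was 1.57 (-0.34 to 3.30), and in both strains column 1 was the higher. The 20 MRPS and RSM genes of the mitochondrial small subunit had a median of -0.47, which turned positive under 3 scalings, with 4 higher and 9 lower, near the 14.7% and 47.2% of all expressed features.

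Each of the 11 listed regulators of ribosomal protein genes was lower by 2-fold or more, where 47.2% of all expressed features were. All 11 regulators were negative under every scaling, but most of them are long genes. Their median was -2.46 (-2.76 to -1.53) and -0.91 after adjusting for length. After this adjustment 4 of the 11 were at least 2-fold lower, where 16.8% of genes with a coding length were. DOT6, a repressor gene of ribosome biogenesis, had 106 and 189 FPKM in MF02 against 6.95 and 11.5 FPKM in UV02_HG, 14.5-fold lower (8.58 to 23.9). IFH1, the coactivator gene of ribosomal protein genes, was at 3.31 and 22.6 FPKM in MF02 against 0.491 and 0.494 FPKM in UV02_HG. The kinase gene SCH9 was 7.13-fold lower (4.99 to 10.51), the activator gene SFP1 5.51-fold (2.41 to 9.64), the repressor gene STB3 6.26-fold (3.75 to 10.97) and TOD6 5.54-fold (3.70 to 7.60). Relative to length, in this order, DOT6, IFH1, SCH9, SFP1, STB3 and TOD6 stood at -2.31, -1.55, -1.29, -0.91, -0.98 and -0.86. Of the other five, HMO1 stood at -1.44, RAP1, FHL1 and UTP22 near 0 at -0.14, -0.16 and -0.056, and CRF1 at 0.24.

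Among 21 genes for assembly of the small subunit 11 were at least 2-fold lower and 1 was higher, against 47.2% and 14.7% of all expressed features, so the share of lower genes was near the background. The list median was -1.12 (-1.56 to -0.19) and 0.11 relative to length. The helicase gene PRP43 had 12.2 and 68.8 FPKM in MF02 against 3.57 and 2.23 FPKM in UV02_HG, 10.6-fold lower (2.895 to 21.6), and ENP1 was 7.33-fold lower (2.79 to 12.8). TSR1 was 4.59-fold lower (1.76 to 7.71), HRR25, a kinase gene, 4.23-fold (2.27 to 6.65) RRP12 3.32-fold, with a range that reached no difference, and RIO1, another kinase gene, 2.77-fold (1.39 to 4.36). TSR2, which encodes the chaperone of the RPS26 protein, was the higher gene, with 7.46 and 24.4 FPKM in MF02 against 28.85 and 41.4 FPKM in UV02_HG. It turned to -0.09 with equal FPKM totals. Relative to length PRP43 and ENP1 stood at -1.77 and -1.52, whereas TSR1, HRR25, RRP12 and RIO1 were within 2-fold of genes of their length, at -0.56, -0.59, -0.18 and -0.11. YAR1 and TSR2 fall outside the naming rule and were chosen after their values were seen. YAR1, for the chaperone of the RPS3 protein, was 2.75-fold lower (2.16 to 3.56) and stood at -1.43 relative to length.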

How the data were processed

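The authors deposited FPKM values, 2 columns per strain per the file headers, for 7163 features, and 4 rows without values were not analysed here. HTSeq 0.6.1, TopHat2 2.0.12 and Bowtie2 2.2.3 are named in the processing notes of the submitters. Build, strand setting and the handling of multiply mapping reads were not given in the sources used here, so R64 (NCBI RefSeq) served for names, chromosomes, coding lengths and sequences, and no coordinates are printed.

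Library totals were recovered as the numbers that turn FPKM times coding length into whole reads, within 0.02, for 99.8% to 99.9% of genes. Strain values are column means, and ratios are log2 of FPKM + 1. A 2-fold difference is a fixed size rule, not a test. B/A ratios were taken the same way, and identities come from global alignments. The 8 single genes, the 8 pairs that differ most between strains, the 5 most uneven pairs in MF02, the 4 highest and 4 lowest members and up to 6 genes per other list were given in full, except that some members enter all counts and medians but are not reported here by name or drawn with a label. The members, regions and lists were chosen with earlier results of these data known. The methods were run on simulated reads with planted differences and less spread between columns than these data. That run therefore does not check the 2-fold pair counts given here. Tools were scipy 1.17.1, pandas 2.3.3, numpy 2.4.6 and matplotlib 3.10.9 under Python 3.11.15.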

Additional observations from a re-analysis of the deposited data

How the results depend on the processing

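The family median of 1.27 stayed positive under every alternative run. It was 0.16 with equal FPKM totals, 1.94 with upper quartile scaling, 2.16 after centring, 2.04 with trimmed mean of M values scaling, 0.67 relative to coding length and 0.99 relative to coding length and GC content. It was 1.199 and 1.32 with MF02 column 1 or column 2 alone, 1.39 and 0.95 with UV02_HG column 1 or column 2 alone, 1.25 from mean log2 values, 1.17 without chromosome XIII, 1.37 with paralogues summed and 1.0013 as a mean of ratios. The count of 32 higher genes became 10 with equal FPKM totals, 14 at a 4-fold threshold and 21 of 32 proteins with paralogues summed. The count of 7 lower genes became 11 with equal FPKM totals, 2 with upper quartile scaling, 0 after centring, 0 with the trimmed mean of M values, 2 relative to length and GC content, 0 at 4-fold and 3 with paralogues summed. With equal FPKM totals 296 of all 6291 features were at least 2-fold higher and 4307 lower. The counts over all features under the other scalings are given above. Relative to length and GC content 771 of 5695 genes with a coding length were at least 2-fold lower. The features past 4-fold were not counted. The count of 7 pairs became 13 at 1.5-fold and 2 at 4-fold. It was 6 and 8 with MF02 column 1 or column 2 alone, and 5 and 7 with UV02_HG column 1 or column 2 alone. With these single columns the higher genes ran from 27 to 36 and the lower genes from 6 to 8. Of all 6291 features 880 to 1117 were higher and 2056 to 3250 lower in these runs. Pseudocounts of 0.1 and 5 and the other filters left these counts at 32, 7 and 7. Among the members past 2-fold, RPS23A (-0.060) and RPS1B (-0.10) changed sign with equal FPKM totals and RPS28A (-0.070) relative to length. Members with smaller ratios changed sign as well. Positive ratios were seen in 45 members as deposited, 30 with equal FPKM totals, 37 relative to length and 49 after centring. Of 379 recomputed pair differences 3 changed sign, all in pairs under 2-fold: RPS27 (-0.16 with MF02 column 1 alone), RPS14 (0.035 with UV02_HG column 1 alone) and RPS10 (-0.13 relative to length and GC content). The GC correction, the removal of chromosome XIII and of similar pairs were chosen after seeing the data. For results given as values the cause of these moves was not tested. No paired analysis was possible because each strain has 1 sample and no test was run. Depth is no limit for the members, but 1 sample per strain is.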
